A study of Mus musculus with 36 samples.

Results

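Loss of Tet2 in hematopoietic stem cells (HSCs) was examined through 7 RNA libraries of the 36 samples in the series, 4 from Tet2KO HSCs and 3 from Control HSCs, chosen by genotype and cell type in the labels. All mice were C57BL/6 animals aged 8 weeks that carried Cre recombinase under the Vav promoter, which drives it in blood-forming cells. Controls were Dnmt3a+/+ and Tet2+/+, and Tet2KO mice were Tet2 fl/fl, so both groups shared the Cre transgene and differed in the floxed Tet2 alleles. HSCs were sorted from bone marrow as Lin-, Sca1+, cKit+, CD48-, CD150+ cells. Each library came from a pool of male and female mice, for which the labels state different pool sizes. Tests here thus rest on differences among pools, and bulk RNA cannot tell fewer cells of a kind from less RNA per cell. Dnmt3aKO HSCs (n = 3; Dnmt3a fl/fl or +, with Vav-driven Cre) and restricted progenitors (RPs, CD150-, CD48+ cells of the same compartment; Control n = 4, Tet2KO n = 4) are used here only for comparison. RP libraries carry the letters a to d, which follow no label and pair with nothing.

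TET2 is an enzyme that oxidises methylcytosine in DNA, a first step in removing the methyl mark from promoters and enhancers. DNMT3A places that mark. HSCs renew themselves and give rise to all blood lineages, and loss-of-function changes in TET2 are common in clonal expansion of blood stem cells. Restricted progenitors lie downstream of HSCs and have lost long-term self-renewal.

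The deposited table counts reads per Ensembl transcript, and the sources used here do not pair its identifiers with genes. Transcripts are therefore described by identifier, level and size of change, and 4 identifiers are printed. For the same reason the level of Tet2 itself and the cell-type markers of HSCs were not checked here. Levels are scaled CPM, the library's counts divided by its TMM-adjusted total. They are not divided by transcript length, so an order by CPM is an order by reads and not by molecules. Libraries held 4949973 to 6453611 counts in Control HSCs and 5486287 to 9366421 in Tet2KO HSCs. With each library reduced by calculation to 3721009 counts, Control HSCs held 31276 to 37439 transcripts and Tet2KO HSCs 33540 to 44049. The fewest of each group were in the library numbered 4. Control RPs held 39880 to 41794 and Tet2KO RPs 41928 to 44910.

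Tet2KO HSCs differed from Control HSCs in 53 of 26820 transcripts tested, or 0.198%, at a Benjamini-Hochberg adjusted p under 0.05 in the edgeR quasi-likelihood fit. Of these, 36 were higher in Tet2KO HSCs (0.134% of those tested) and 17 were lower (0.0634%). The median fitted log2 fold change was 5.85 over the higher and -3.92 over the lower transcripts, beside 0.10 over all transcripts tested. The direction of these medians is fixed by the choice of members. Fitted values of members with few or no counts in a group depend on the prior count of the fit.

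The higher transcript with the highest CPM was ENSMUST00000074680.7. It stood at 5.13, 4.38 and 5.40 CPM in Control HSC replicates 2, 3 and 4, and at 1873, 1499, 1187 and 1683 CPM in Tet2KO HSC replicates 1 to 4. No library of one group came near the other, and the lowest Tet2KO library was 219.9-fold above the highest Control library. The means were 4.97 ± 0.53 (SD, n = 3) and 1560 ± 292 CPM (n = 4), or 8.29 on the log2 scale with an SE of 0.42 (edgeR adjusted p = 5.60e-10). Dnmt3aKO HSCs were at 4.63, 4.89 and 6.88 CPM.

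The lower transcript with the highest CPM was ENSMUST00000029722.6. It stood at 1668, 1801 and 1903 CPM in the Control HSC libraries and at 30.4, 28.6, 33.1 and 25.8 CPM in Tet2KO HSC replicates 1 to 4. All 3 Control libraries were high and all 4 Tet2KO libraries were low, with a gap of 50.4-fold between the nearest 2. The log2 estimate was -5.92 with an SE of 0.25 (edgeR adjusted p = 4.99e-11). Dnmt3aKO HSCs were at 2224, 1656 and 1330 CPM. The sum of ENSMUST00000074680.7 and ENSMUST00000029722.6 was 1796 ± 118 CPM in Control HSCs (range 1673 to 1909) and 1590 ± 291 CPM in Tet2KO HSCs (1220 to 1903). The ranges of the sum overlapped, while those of each transcript did not. Whether reads of both could come from shared or near-identical sequence was not tested.

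**Figure D1:**
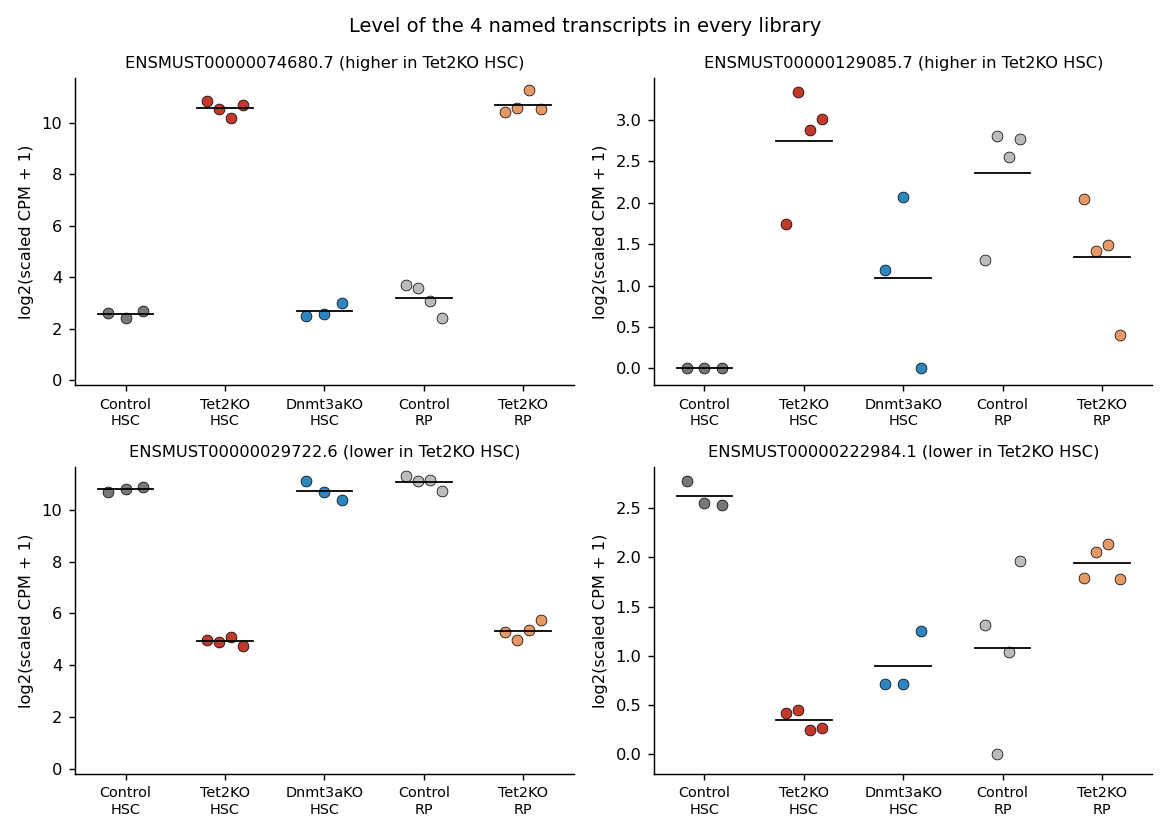
Level of the 4 named transcripts in each library, as log2(scaled CPM + 1). Each point is a library and each bar the mean of the log2 values of its group. The 2 transcripts on the left are separated by genotype in HSCs and in RPs, and the 2 on the right are separated in HSCs while their RP groups overlap.

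Most higher transcripts started from little or no signal. In Control HSCs 8 of the 36 had no count in any library and another 12 had 1 to 3 counts over the group. The remaining 16 had more. With every group of 0 to 3 counts set to a floor of 3 counts, 34 of the 36 differed at least 4-fold, 28 at least 16-fold and 5 at least 64-fold. The smallest difference was 2.03-fold, in the transcript that ranked second in CPM. That transcript stood at 235.8, 232.2 and 268 CPM in Control HSCs and at 439.3, 550.7, 470.7 and 526.8 CPM in Tet2KO HSCs (edgeR log2 estimate 1.02 with SE 0.19, adjusted p = 0.0259). In each Control HSC library 14 to 16 of the 36 had no count, and in each Tet2KO HSC library none of the 36 was at 0. Over all transcripts tested, 2.81% had no count in Control HSCs and 0.257% had none in Tet2KO HSCs. Control HSCs had 3 libraries against 4, and fewer counts per library on average, so an empty group is likelier there at the same level. The number of transcripts detected at equal depth was also lower on average in Control HSCs, with overlapping ranges, and its part in these calls was not tested.

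Lower transcripts had more reads, and fewer of them changed by large folds. With the same floor, 13 of the 17 fell at least 4-fold, 8 at least 16-fold and 1 at least 64-fold. The higher-group mean had a median of 107.0 CPM over the lower transcripts and 10.9 CPM over the higher ones. Only 1 of the 17 had no count in Tet2KO HSCs. Its Control HSC levels were 1.46, 4.54 and 4.80 CPM, and the Tet2KO level was at least 36.0-fold below their mean (edgeR adjusted p = 0.0351). The lower transcript that ranked second in CPM was at 673.2, 802 and 755.4 CPM in Control HSCs and at 206.5, 164.7, 247.1 and 190.8 CPM in Tet2KO HSCs, a fall by 1.88 on the log2 scale with an SE of 0.37 (edgeR adjusted p = 0.0393). The lower transcript at rank 4 fell from 171.9, 240.7 and 226.4 CPM to 5.04, 10.2, 2.12 and 1.21 CPM (edgeR log2 estimate -5.50 with SE 0.58, adjusted p = 4.91e-05).

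**Figure D2:**
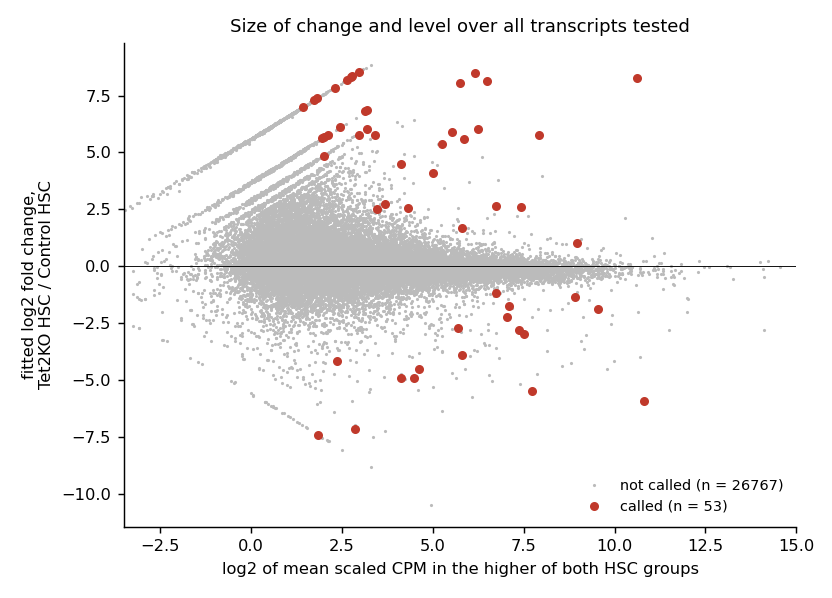
Fitted log2 fold change of Tet2KO HSC over Control HSC (vertical axis) against log2 of the mean scaled CPM in the higher group (horizontal axis), 1 point per transcript tested. Grey points were not called and red points are the 53 called. Diagonal lines of grey points are transcripts with few or no counts in a group, whose fitted value depends on the prior count.

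The share of transcripts called grew with level, as did the precision of the fold change. Below 5 CPM in the higher group 9 of 13588 transcripts were called (0.0662%), with a median SE of 1.12 on the log2 scale, and none of the 9 had a fitted change smaller than 4.82. Between 5 and 20 CPM 17 of 7018 were called (0.242%), and between 20 and 100 CPM 13 of 4237 (0.307%). At 100 CPM or more 14 of 1977 were called (0.708%), with a median SE of 0.28, and changes down to 1.02 on the log2 scale passed.

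The libraries separated clearly for nearly all called transcripts. All 4 Tet2KO libraries lay above all 3 Control libraries for 35 of the 36 higher transcripts, and below them for all 17 lower ones. Over all transcripts tested, 5.31% had Tet2KO libraries all above and 2.69% all below. The called transcripts were chosen by a test on these same libraries, so their separation is a description and no test. The gap between the nearest libraries was at least 10-fold for 27 of the higher and 6 of the lower transcripts, with a gap to libraries at 0 counted as larger than 10-fold. No floor was applied to these gaps. The 27 include all 8 higher transcripts with no count in Control HSCs and all 12 with 1 to 3 counts, whose gaps rest on few or no Control reads. The exception was at 15.2, 8.45 and 27.4 CPM in Control HSC replicates 2, 3 and 4 and at 113.3, 157.2, 132.2 and 22.8 CPM in Tet2KO HSC replicates 1 to 4, so Tet2KO replicate 4 lay below Control replicate 4 (adjusted p = 0.0439, edgeR). Tet2KO HSC replicate 4 was the library nearest to Control HSCs for 15 of the 36 higher and 7 of the 17 lower transcripts, the most of the 4 libraries in both directions. Within Tet2KO HSCs the coefficient of variation of the higher transcripts ran from 7.29% to 62.4%, with a median of 41.1%.

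Summed over each list, the pattern was even between libraries. The 36 higher transcripts together held 311.4 to 373.9 CPM in Control HSCs and 2924 to 3626 CPM in Tet2KO HSCs. Without ENSMUST00000074680.7 these sums were 306.3 to 368.5 and 1589 to 1758 CPM. The 17 lower transcripts held 3776 to 4422 CPM in Control HSCs and 558 to 651.5 CPM in Tet2KO HSCs. Without ENSMUST00000029722.6 they held 2108 to 2621 and 527.6 to 625.7 CPM. The sums describe lists chosen for these differences.

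**Figure D3:**
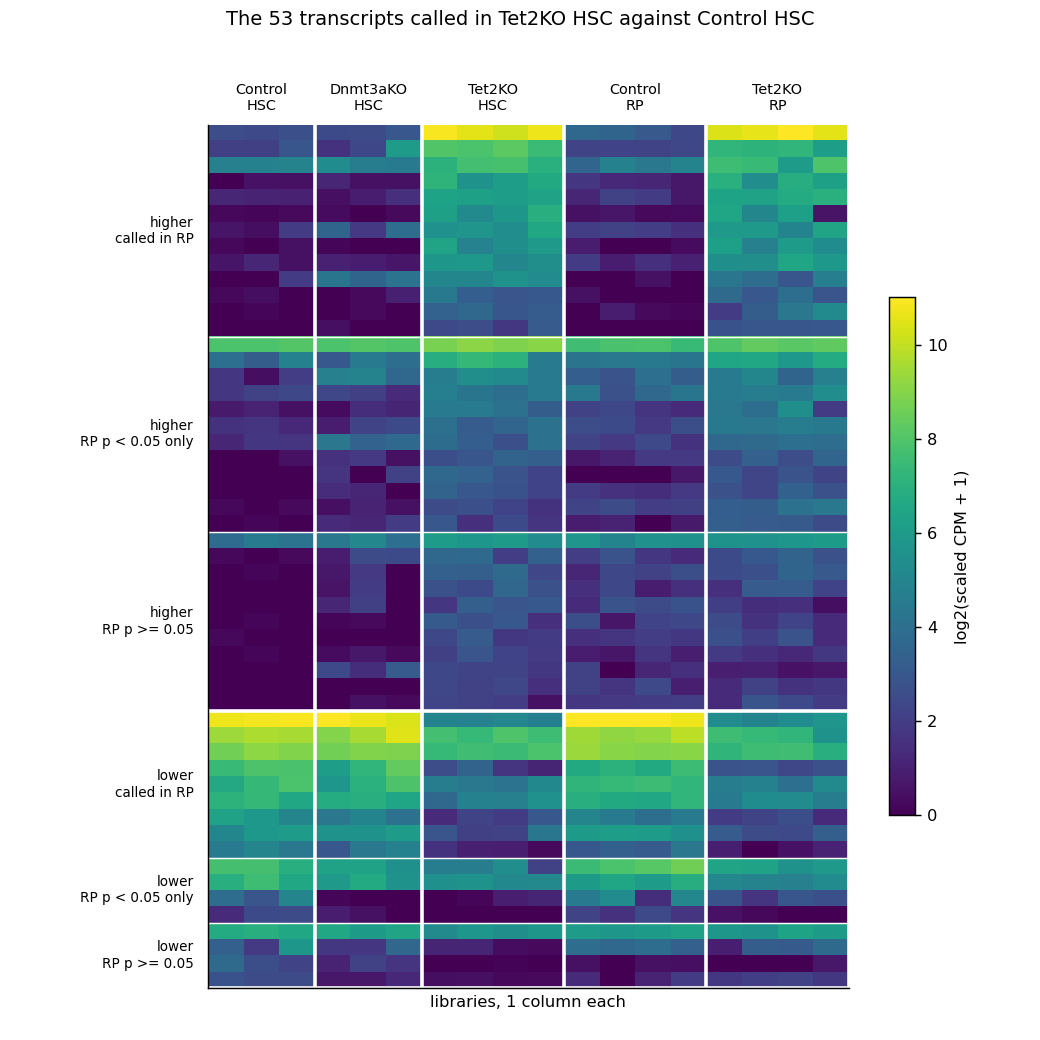
Level of the 53 called transcripts (rows) in the 18 libraries (columns), as log2(scaled CPM + 1) in colour. Rows are grouped by direction in HSCs and by the result of the same contrast in RPs, and ordered by level within a group. The 13 higher and 9 lower transcripts called in RPs repeat their pattern in the RP columns, while 10 of the 11 higher transcripts with an RP p of at least 0.05 are near 0 in Control HSCs and above it in most Control RP libraries.

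The same genotype contrast in RPs shares no library with that in HSCs, although both take their spread from the same fit. In RPs 25 transcripts were called higher (0.0932% of those tested) and 11 lower (0.041%). Of the 36 transcripts higher in Tet2KO HSCs, 13 were also called higher in Tet2KO RPs, and of the 17 lower ones 9 were also called lower. These 22 are 41.5% of the HSC calls and 61.1% of the RP calls. A further 12 higher and 4 lower transcripts had an unadjusted p under 0.05 in RPs, all in the HSC direction. Of all transcripts tested, 3.82% passed that level, 2.39% higher and 1.42% lower. The sign of the RP change was that of the HSC change for 32 of the 36 higher and 16 of the 17 lower transcripts, where 52.3% of all transcripts were above 0 in RPs and 47.6% below. The other 11 higher and 4 lower transcripts had an RP p of 0.05 or more. Libraries of the 2 RP groups did not overlap, in the HSC direction, for 22 of the 36 higher and 12 of the 17 lower transcripts, against 2.7% and 1.92% of all transcripts tested.

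The 22 transcripts called in both cell types had similar median changes in each. Their median log2 fold change was 6.05 in HSCs and 6.00 in RPs over the 13 higher, and -2.78 in both over the 9 lower. The 22 were chosen for a call in the same direction in both cell types, so this likeness is in part fixed by the choice. ENSMUST00000074680.7 was at 11.8, 10.8, 7.40 and 4.30 CPM in Control RPs and at 1382, 1539, 2508 and 1478 CPM in Tet2KO RPs (edgeR log2 estimate 7.67 with SE 0.36, adjusted p = 1.17e-10). ENSMUST00000029722.6 went from 1694 to 2565 CPM in Control RPs to 30.0 to 52.0 CPM in Tet2KO RPs. The higher transcript at rank 3 in CPM was at 3.30, 3.29 and 6.59 CPM in Control HSCs and at 253.9, 237.6, 295.6 and 180.7 CPM in Tet2KO HSCs, and at 71.3 to 150.8 CPM in Tet2KO RPs against 4.05 CPM or less in Control RPs. It was called in both (edgeR adjusted p = 0.00621 in HSCs and 0.00300 in RPs). In Dnmt3aKO HSC replicate 4 it was at 65.9 CPM, against 2.06 and 4.25 CPM in replicates 1 and 2.

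Among higher transcripts with a count in Control HSCs, the largest ratio belonged to the one at rank 8, also called in both. It had 3 counts over the Control HSC group and stood at 74.9, 36.1, 56.4 and 117.2 CPM in Tet2KO HSC replicates 1 to 4. The ratio of its Tet2KO mean to the CPM of the pooled Control libraries was 399.8, with a 95% counting interval of 136.8 to 1939. That interval takes in the ratio of 314.1 for ENSMUST00000074680.7, so it does not fix their order. In Tet2KO RPs the transcript at rank 8 was at 90.6, 31.9 and 72.1 CPM in replicates a, b and c. It was at 0.487 CPM in replicate d, within the Control RP range of 0.211 to 0.570 CPM. It was the 1 higher transcript called in RPs whose RP groups overlapped.

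**Figure D4:**
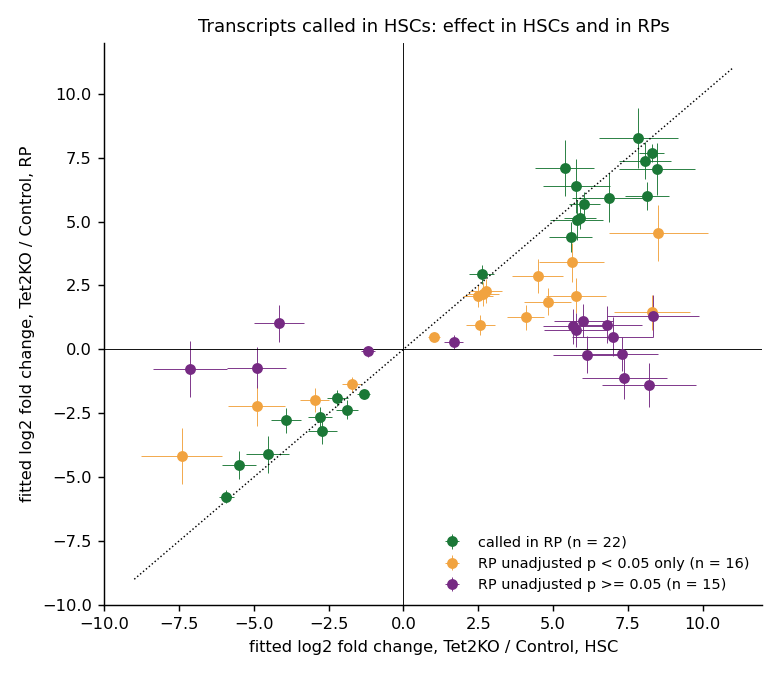
Fitted log2 fold change of Tet2KO over Control in HSCs (horizontal axis) and in RPs (vertical axis) for the 53 transcripts called in HSCs, with 1 SE in each direction. The dotted line marks equal change. Green points (22) lie near it, orange points (16) lie between it and 0, and purple points (15) lie between -1.39 and 1.29 in RPs. Colours follow the RP p, so these positions are in part fixed by the grouping.

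Transcripts called in HSCs that missed the unadjusted p threshold in RPs were few and mostly low. Missing that threshold does not show that a change was absent in RPs. With the filter on low counts, edgeR called a difference between the Tet2 effects in HSCs and RPs (the interaction) for 0 of 26820 transcripts. The smallest adjusted p of that edgeR test was 0.640, so none is described as particular to HSCs. The 11 higher transcripts of this group had a median of 5.46 CPM in Tet2KO HSCs, against 58.0 CPM for the 13 called in both cell types. Their median fitted log2 fold change was 6.80 in HSCs and 0.50 in RPs, and 4 of the 11 had a fold change below 0 in RPs. The HSC value depends on the prior count of the fit, since most of the 11 had few or no Control HSC counts. Together they held 13.5 to 22.2 CPM in Control HSCs, 75.9 to 122.4 CPM in Tet2KO HSCs, 58.7 to 76.9 CPM in Control RPs and 80.1 to 102.3 CPM in Tet2KO RPs. Between 2 and 4 of the 11 had a count in each Control HSC library, and 10 or 11 had one in each Control RP library. For 10 of the 11, every Control RP library lay above every Control HSC library, as for 9.88% of all transcripts tested. These transcripts were chosen for low levels in Control HSCs, so this difference between cell types is a description and no test. Control HSCs also held fewer transcripts than Control RPs at equal depth, and the part of this in the pattern was not tested.

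ENSMUST00000129085.7 had the smallest interaction p among the higher transcripts of this kind. It had no count in Control HSCs and was at 2.35, 9.08, 6.36 and 7.05 CPM in Tet2KO HSC replicates 1 to 4. The groups did not overlap, and the difference was at least 34.9-fold (adjusted p = 0.0412, edgeR). In RPs it was at 1.48, 5.98, 4.86 and 5.81 CPM in Controls and at 3.12, 1.68, 1.81 and 0.325 CPM in Tet2KO, with overlapping groups and or -1.39 on the log2 scale with an SE of 0.86 (edgeR adjusted p = 1). Dnmt3aKO HSC replicates 1 and 2 also had counts of it, at 1.28 and 3.19 CPM, and the other had none. The fitted difference between its Tet2 effects in HSCs and RPs was 9.59 on the log2 scale (SE 1.80, unadjusted p = 5.48e-05, adjusted p = 0.640, edgeR). With no count in Control HSCs, the size of this value depends on the prior count of the fit.

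The 4 lower transcripts with an RP p of at least 0.05 held 132.2 to 157.5 CPM together in Control HSCs and 38.1 to 55.6 CPM in Tet2KO HSCs. Their sums were 66.9 to 89.9 CPM in Control RPs and 58.9 to 92.3 CPM in Tet2KO RPs, which overlapped. ENSMUST00000222984.1 was at 5.86, 4.85 and 4.80 CPM in Control HSCs and at 0.336, 0.363, 0.184 and 0.201 CPM in Tet2KO HSCs, or -4.15 on the log2 scale with an SE of 0.84 (edgeR adjusted p = 0.0439). All Control libraries were above all Tet2KO libraries, the latter with 8 counts in all. In RPs it was at 0 to 2.91 CPM in Controls and at 2.44 to 3.40 CPM in Tet2KO, or 1.01 on the log2 scale with an SE of 0.71 (edgeR adjusted p = 1). The one with the highest CPM of the 4 went from 107.5, 119.4 and 94.1 CPM in Control HSCs to 36.6, 53.1, 43.7 and 55.2 CPM in Tet2KO HSCs (edgeR log2 estimate -1.18 with SE 0.24, adjusted p = 0.0424). It was at 55.0 to 77.2 CPM in Control RPs and 48.6 to 81.2 CPM in Tet2KO RPs.

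Within edgeR, whether any transcript was called as responding to Tet2 loss differently in HSCs and RPs changed with the filter on low counts. DESeq2 was run without that filter, so its fit changed tool and filter together. With the filter on low counts, edgeR called the interaction for 0 of 26820 transcripts (0%), and the smallest adjusted p was 0.640. At an unadjusted p under 0.05 there were 1435 (5.35%), and at an unadjusted p under 0.001 there were 26 (0.0969%). Of the 15 transcripts with an RP p of at least 0.05, all had an unadjusted interaction p between 5.48e-05 and 0.00334. That follows in part from how they were chosen, by a call in HSCs and an unadjusted p of 0.05 or more in RPs. The same choice favours interaction calls for them in the other fits too. DESeq2 and edgeR without the filter also tested transcripts that the filter removes, so their counts are not shares of 26820. DESeq2 called the interaction for 14 transcripts, among them 5 of these 15, 1 of the 16 with an unadjusted RP p under 0.05 only, and 0 of the 22 called in both cell types. ENSMUST00000129085.7 (adjusted p = 0.00134, DESeq2) and ENSMUST00000222984.1 (adjusted p = 0.00143, DESeq2) were among the 5. Without the filter, edgeR called the interaction for 241 transcripts, 10 of them among the 53. There the adjusted p was 3.85e-05 for ENSMUST00000129085.7 and 0.0765 for ENSMUST00000222984.1. That fit also gave far smaller p-values in HSCs for transcripts whose estimate hardly moved, for reasons not tested. For ENSMUST00000074680.7 the edgeR adjusted p was 2.68e-114 without the filter and 5.60e-10 with it, at a log2 estimate of 8.29 in both. For ENSMUST00000029722.6 it was 5.99e-106 and 4.99e-11, at -5.92 in both.

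Dnmt3aKO HSCs were set beside the same 53 transcripts. Their comparison with Control HSCs uses the same 3 Control libraries, so a like direction in both is not independent. None of the 53 was called in Dnmt3aKO HSCs, where 0.0149% of all transcripts were called. In the Tet2KO direction 16 of the 36 higher and 7 of the 17 lower transcripts had an unadjusted p under 0.05, against 7.75% of all transcripts in either direction. Compared with the Tet2KO libraries alone, all 3 Dnmt3aKO libraries lay on the Control side of all 4 Tet2KO libraries for 29 of the higher and 15 of the lower transcripts. Over all transcripts tested, 4.77% had every Dnmt3aKO library below every Tet2KO library and 2.79% had every one above. The members were chosen for Tet2KO values far from those of Control HSCs, so nothing is read from these counts. The 36 higher transcripts together held 407.3 to 458.1 CPM in Dnmt3aKO HSCs, and the 17 lower ones 3647 to 4189 CPM.

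Single libraries moved the number of calls widely. It was 18 without Control HSC replicate 2, 24 without replicate 3 and 31 without replicate 4. It was 32, 35 and 39 without Tet2KO HSC replicates 1, 2 and 3, and 106 without Tet2KO HSC replicate 4. Without all HSC libraries numbered 4 it was 96, of which 39 were among the 53. Of the 53, 15 kept their call whichever of the 7 libraries was left out, 8 higher and 7 lower. Those 15 comprised 14 of the 22 transcripts called in RPs, 1 of the 16 with an unadjusted RP p under 0.05 only, and 0 of the 15 with a higher RP p. The fit of all groups uses the RP libraries for its estimate of spread. A fit of the 7 HSC libraries alone called 21 transcripts and kept 17 of the 53, 16 of which were called in RPs. ENSMUST00000129085.7 lost its call in 9 of 14 alternative fits and ENSMUST00000222984.1 in 11 of 14, while ENSMUST00000074680.7 and ENSMUST00000029722.6 lost theirs in 0 of 14.

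**Figure D5:**
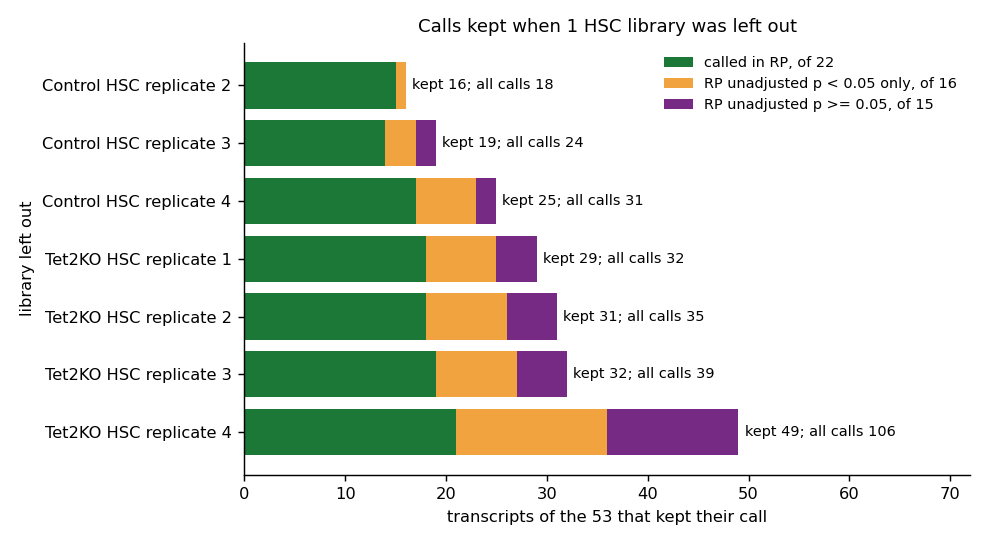
Number of the 53 called transcripts that kept their call when 1 HSC library was left out (bars, coloured by the result in RPs), with the number kept and the number of all calls in that fit printed beside each bar. Between 16 and 49 were kept, and most of those kept were called in RPs except without Tet2KO HSC replicate 4.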

How the data were processed

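RNA libraries were made from sorted HSCs and RPs with a kit for very small RNA amounts, per the labels. The deposited table held raw counts per Ensembl transcript, 138835 in all, counted by the authors over exons of a GENCODE mouse annotation per the file name. Per the submitters' processing notes, mm10, HTSeq 0.8.0, STAR 2.0.4 and edgeR 3.9 were among the builds and tools. Strand setting and handling of shared exons were not given in the sources used here, so transcripts that overlap, share exons or have near-identical copies are uncertain. Of 36 count columns, 18 matched samples of the series and 18 were not used. HSC columns carry genotype and number but no cell type, and were read as HSCs since only the RP columns name a cell type. RP columns were matched to their group only.

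The filterByExpr filter (minimum count of 10 and minimum total of 15, by group) kept 26820 transcripts with 98.92% of counts. edgeR 4.0.16 (R 4.3.3) fitted all 18 libraries together by quasi-likelihood, with TMM factors and group as the only term, and p-values were adjusted over all transcripts. DESeq2 1.42.0 was an alternative, run without the filterByExpr filter, so tool and filter changed together. Fold changes against a group with no count are lower bounds from a floor of 3 counts over that group, and ratios to groups with 1 to 3 counts carry a 95% Poisson interval. The floor, like the intervals, covers counting error only (no molecular identifiers were counted). Among called transcripts with no overlap between HSC groups, the rule for names took, in each direction, the highest CPM, and the smallest interaction p among those with an RP p of at least 0.05 and at least 1 CPM in the higher group. In none of the 24 pairs of libraries within a group did counts agree within sampling noise (chi-square over degrees of freedom 9.45 or more), and each counts as 1 sample. Simulated counts with known changes were used to check the scripts. The comparison and the lists were chosen with earlier results of these data known.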

Additional observations from a re-analysis of the deposited data

Results flagged for a closer look

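In groups of 4 libraries, a library was looked at again when its gap to the nearest other exceeded Dixon's 95% critical share of the group's range. Of 66 groups examined 4 met this, and chance alone gives about 1 in 20. ENSMUST00000074680.7 was at 2508 CPM in Tet2KO RP replicate c, against 1382 to 1539 CPM in the other 3. A higher transcript called in both cell types was at 20.7 CPM in Tet2KO HSC replicate 1, against 6.45 to 8.71 CPM in the others. A higher transcript with an RP p of at least 0.05 was at 11.5 CPM in Tet2KO HSC replicate 3, against at most 5.71 CPM in the others. A lower transcript was at 0.0922 CPM, a single read, in Tet2KO HSC replicate 3 and at 0 in the other 3.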

How the results depend on the processing

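Of 14 alternatives, 2 kept the number of HSC calls within 1.5 times of 53. It was 1001 without a filter on low counts (700 higher, 301 lower; 52 of the 53 kept), 717 in DESeq2 (598 higher, 119 lower, against 36 and 17; all 53 kept), 21 in a fit of the 7 libraries compared, 15 in a fit of all HSC libraries with Dnmt3aKO, 96 without the HSC libraries numbered 4, and 18 to 106 with 1 library left out. A fit of all HSC libraries with the replicate number as a replicate block gave 10. Same-numbered Control and Tet2KO HSC libraries had deviations correlated at 0.04, 0.06 and 0.20 for numbers 2, 3 and 4. Control replicate 2 correlated best with Tet2KO replicate 3 (0.07), and the numbers were not taken as pairs. All other pairs with a library numbered 4 were at -0.11 to -0.06. Deviations from a group mean offset each other, so these values are not separate from the 0.20 and nothing is read from them. What the libraries numbered 4 share was not tested. RP calls numbered 241 without the filter, 119 in DESeq2 and 78 in a fit of RP libraries, against 36. Calls shared by HSCs and RPs numbered 92 without the filter, 68 in DESeq2 and 14 to 27 with 1 library left out (14 without Control HSC replicate 3), against 22. The interaction was called for 241 transcripts without the filter, 14 in DESeq2 and 0 in the other 17 alternatives. No named transcript changed direction in any of 14 alternatives, of which the fit of all HSC libraries was added for them after seeing the data. Adjusted p ran from 3.67e-05 to 0.582 for ENSMUST00000129085.7 and from 3.90e-05 to 0.496 for ENSMUST00000222984.1. The cause of these shifts was not tested, and the DESeq2 fit also lacked the filterByExpr filter. Under 5 CPM, the median SE of the log2 change was 1.12.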

Other observations

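Calls crowded near the threshold. A further 69 transcripts, 53 higher and 16 lower in Tet2KO HSCs, had an adjusted p between 0.05 and 0.1 in edgeR, the smallest at 0.0501, while the largest adjusted p among the 53 called was 0.0439.

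One pair of higher transcripts kept a nearly fixed proportion, and most pairs did not. Among 13 higher transcripts with at least 20 CPM in Tet2KO HSCs and in Tet2KO RPs, 78 pairs were formed after the values had been seen. In the steadiest pair, both called in HSCs and RPs, one transcript held 0.531 to 0.662 of the CPM of the other in each of the 8 Tet2KO libraries, so the highest proportion was 1.25 times the lowest. This figure was 1.58 for the next pair, above 3 for 65 of the 78 and 5.29 at the median. Their HSC levels were 84.5, 28.8, 43.7 and 59.8 CPM and 140.2, 48.8, 68.7 and 100.5 CPM in Tet2KO replicates 1 to 4, so both were lowest in replicate 2 and highest in replicate 1. In Control HSCs they had 3 and 5 counts in all. Whether the pair shares reads was not tested.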
